A study of Mus musculus with 76 samples.

Results

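Lysosomal enzymes, the lysosomal proton pump and autophagy genes were followed across Fnip2 genotype in visceral white adipose tissue (WAT) and liver. The set held 41 named genes from classes of known targets of the transcription factors TFEB and TFE3, and all 19 genes whose symbol starts with Atp6v, which gave 60 genes. All 60 were listed in the WAT table and 58 in the liver table, among 18964 and 16775 entries. A mean of at least 10 normalized counts over the libraries of a tissue was required, and 57 members passed in WAT and 56 in liver, of 12798 and 11710 genes that passed in all.

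The series compared mice homozygous for an edited Fnip2 allele (Fnip2C/C) with mice homozygous for the unedited allele (Fnip2T/T). All animals were female, on a C57BL/6 background and fed ad libitum, and no age was given in the labels. The edited allele carried a T-to-C change in the 3′ untranslated region of Fnip2, a folliculin-interacting protein, and a further G-to-C change that destroys the PAM used for editing, so both changes separate the genotypes in every cell of the body. WAT was sequenced from C/C mice 590, 593, 599 and 638 and from T/T mice 607, 608, 609, 657 and 658, and liver from 5 mice of each genotype, with 6 of the 13 mice giving both tissues.

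Lysosomes break down material that reaches them by endocytosis or by autophagy. Their enzymes work at acid pH, which the vacuolar proton pump (V-ATPase) maintains by coupling ATP hydrolysis in its V1 sector to proton flow through its V0 sector. Many of these genes carry a short DNA motif to which TFEB and TFE3 bind, and both factors are held in the cytosol when mTORC1 phosphorylates them on the lysosome, a step that needs folliculin and its FNIP partners.

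RefSeq promoters (GRCm38.p6, from 250 bases before to 50 bases after the annotated start) were found by symbol for 48 of the 60 members. The letters CACGTG, the core of that motif, stood in the promoters of 17 of the 48 (35.4%), and the longer palindrome TCACGTGA in 7 (14.6%). Over the 9452 genes tested in WAT that had a promoter, the shares were 11.8% and 2.26%, and over all 27025 genes with a promoter 8.09% and 1.12%. Both strings are palindromes, so each hit holds on both strands, and every TCACGTGA hit is also a CACGTG hit. The members belong to classes chosen because they are known targets of these factors, so a larger share is no independent result. Windows from members that moved in WAT are shown with the motif in capitals, to give the sequence next to the direction of the change.
Mcoln1, higher in C/C WAT, chr8:3500462-3500491 (plus strand): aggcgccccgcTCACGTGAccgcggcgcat
Ctsa, higher in C/C WAT, chr2:164833749-164833778 (plus strand): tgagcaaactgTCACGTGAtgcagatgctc
Atg5, higher in C/C WAT, chr10:44268313-44268342 (plus strand): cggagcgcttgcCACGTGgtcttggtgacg
Atp6v0b, higher in C/C WAT, chr4:117887330-117887359 (minus strand): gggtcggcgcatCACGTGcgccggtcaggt
Ctsl, lower in C/C WAT, chr13:64370739-64370768 (minus strand): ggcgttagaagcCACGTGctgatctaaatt
Atp6v0d1, lower in C/C WAT, chr8:105566050-105566079 (minus strand): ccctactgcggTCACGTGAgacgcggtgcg
Atp6v0e, lower in C/C WAT, chr17:26676387-26676416 (plus strand): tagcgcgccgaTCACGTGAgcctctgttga

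The motif occurred on both sides of the genotype difference. In WAT, 6 of the 12 members called higher in C/C with a promoter and 3 of the 12 called lower held CACGTG, and 2 of each group held TCACGTGA. Among the 22 members with a promoter that were not called, 8 held CACGTG. Lamp1, the most widely used marker of the lysosomal membrane, held 4 copies within its last 61 bases before the start and was not called. A match is a description of the letters and does not show a bound site.

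The libraries were 3′ mRNA libraries, in which reads start near the poly(A) tail, so counts were not divided by transcript length. Reads assigned to genes lay between 4180209 and 6277644 per WAT library and between 5583041 and 7523200 per liver library, and these totals limit the precision of each count. Fnip2 itself, the edited gene, had 14.1 to 30.9 normalized counts in C/C and 14.5 to 42.6 in T/T WAT, and 133 to 197 against 49.2 to 134 in liver, and was called in neither tissue. In liver its C/C range lay above the T/T range but for a slight overlap, and none of the 11710 genes tested there was called. Ovarian transcripts stood high in the WAT library of C/C mouse 593, with a summed normalized count of 26483 over the 12 genes of an ovary list that the table held against 199 to 445 in the other 8 libraries. Erythroid genes summed to 3045 to 4302 in C/C and 10331 to 13806 in T/T WAT, and hepatocyte genes to 203 to 659 and 833 to 2891, so the genotypes did not overlap for either sum. Adipoq, the fat cell hormone adiponectin, was present in every WAT library at 4216 or more. Of 10 adipocyte markers tested, 5 were called lower in C/C (50%), among them Adipoq (log2 fold change -1.20) and Lep (-1.87). Over all genes tested in WAT, 17.0% were called lower. The summed adipocyte count overlapped between genotypes, at 123912 to 348412 in C/C and 258445 to 474556 in T/T. Its lowest value was that of C/C mouse 593. The numbers of the WAT RNA labels were even in every C/C and odd in every T/T library, so anything that went with that order cannot be told apart from genotype. In the liver table the columns stood with even label numbers first and odd ones after, and both runs mixed the labelled genotypes, with 2 C/C and 3 T/T libraries and then 3 and 2, and the labels were kept. The part of any of these in the results was not tested, and in bulk tissue fewer cells of a type and less RNA per cell cannot be told apart.

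The first question was whether these genes moved together with genotype in WAT. They did not: 30 of the 57 members tested differed, 13 higher and 17 lower in C/C, and their log2 fold changes ran from -3.10 to 2.07. The highest value is that of Atp6v0a4, which passed the minimum only through the C/C libraries, and without it 29 of 56 were called (12 higher, 17 lower) and the highest value was 1.40. Over all genes tested, 32.1% were called (15.1% higher and 17.0% lower), with an adjusted p under 0.05 by limma on log2(normalized count + 1) as the threshold. The counts given for single classes are to be read beside these shares, and most classes hold few genes. The median log2 fold change of the members was -0.02, beside 0.02 over all genes, while the median absolute change was 0.76 for members and 0.54 for all genes. No library of one genotype overlapped the other in 26 members, 11 with C/C above and 15 with C/C below, against 26.1% of all genes tested (12.2% above and 13.8% below). The plot of the called members by library shows both directions among membrane proteins, proteases, conjugation genes and both pump sectors.

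**Figure D1:**
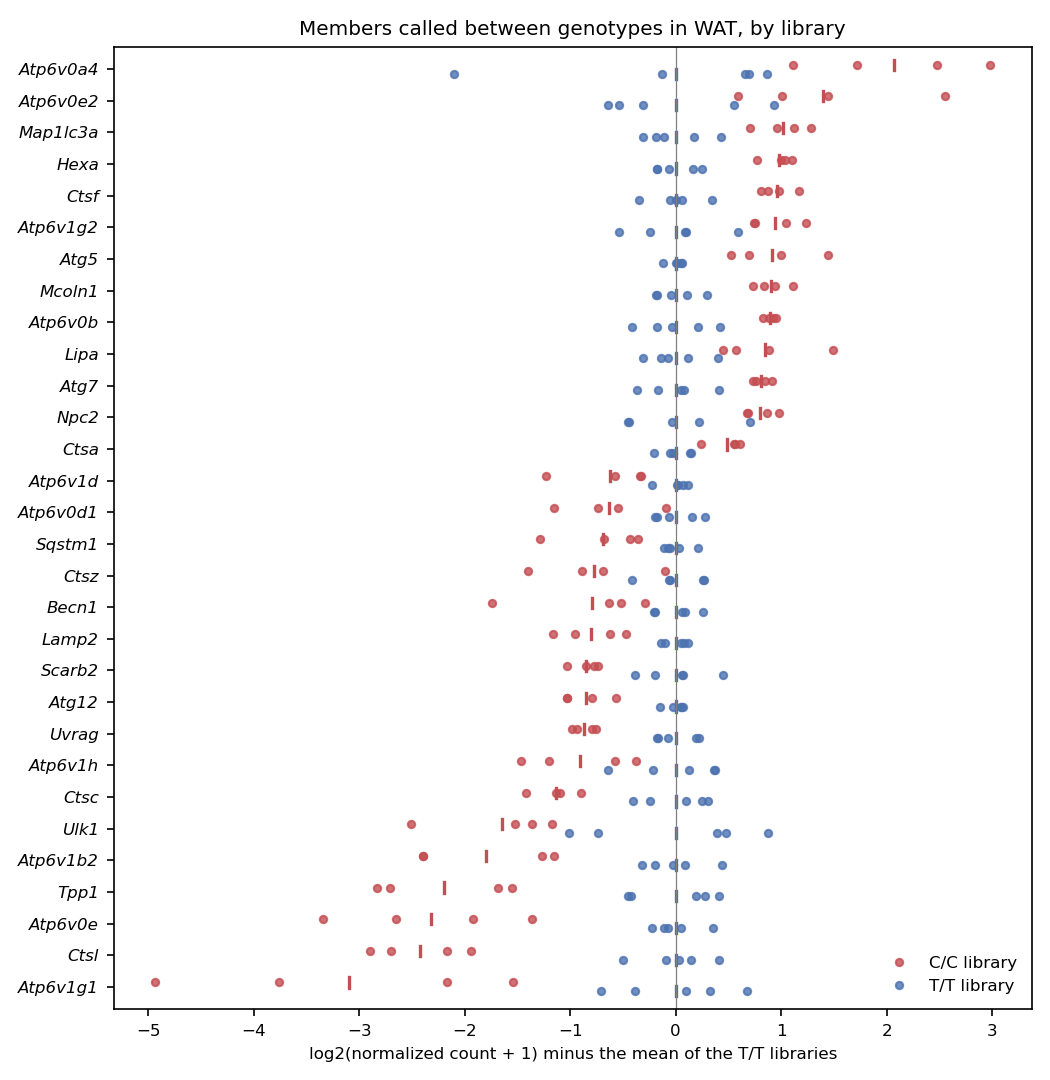
WAT libraries of C/C (red) and T/T (blue) mice for the 30 members called, as log2(normalized count + 1) minus the mean of the T/T libraries, with short bars for the mean of each genotype. The 13 members in the upper rows were higher and the 17 in the lower rows were lower in C/C, from Atp6v1g1 at -3.10 to Atp6v0a4 at 2.07.

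Cathepsins and other proteases held the members with the largest falls outside the pump, and 4 of 10 were lower and 2 higher in C/C WAT. Ctsl, which encodes the cysteine protease cathepsin L, had 238, 140.4, 204 and 122 normalized counts in the C/C libraries and 937, 860.0, 649.7, 1218 and 1013.3 in the T/T libraries. Every C/C library lay below every T/T library, with the highest C/C value well under the lowest T/T value. The mean was 176 ± 54.1 (SD, n = 4) in C/C and 936 ± 208 (SD, n = 5) in T/T, a log2 fold change of -2.43 (SE 0.24, adjusted p = 0.000304), or 5.38-fold lower. The exact two-sided permutation test gave p = 0.00794 for Ctsl, the smallest that 126 groupings of 4 and 5 libraries allow.

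Tpp1, the tripeptidyl peptidase lost in a childhood form of neuronal ceroid lipofuscinosis, had 87.0, 38.4, 79.1 and 35.1 normalized counts in C/C and 310.2, 187, 191, 293 and 342 in T/T. The genotypes were again apart in every library, at a log2 fold change of -2.19 (SE 0.30, adjusted p = 0.000732). Ctsc, cathepsin C or dipeptidyl peptidase 1, which activates granule serine proteases, had 106, 133, 129 and 152 in C/C against 338, 215, 241, 304 and 352 in T/T (log2 fold change -1.14, SE 0.20, adjusted p = 0.00157). Ctsz, a carboxypeptidase, was lower with overlap between the genotypes, at 136 to 336 in C/C and 271 to 435 in T/T (-0.77, SE 0.24, adjusted p = 0.0297).

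The opposite direction was seen in the same class for Ctsf and Ctsa. Ctsf, a cysteine cathepsin, had 325, 371, 287 and 301 normalized counts in C/C and 158, 164, 209, 171 and 129 in T/T. All C/C libraries were above all T/T libraries, with a log2 fold change of 0.96 (SE 0.18, adjusted p = 0.00218). Ctsa, the protective protein that stabilises neuraminidase and beta-galactosidase, had 775, 804, 621 and 773 in C/C and 507, 584, 579, 517 and 455 in T/T (0.49, SE 0.16, adjusted p = 0.0353). The 2 enzymes that Ctsa protects were not called: Neu1 had a log2 fold change of -0.43 (adjusted p = 0.228) and Glb1 one of -0.39 (adjusted p = 0.295).

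Ctsd and Ctsb, the aspartic and cysteine proteases with the highest mean counts of the class, were not called in WAT. Ctsd varied as much within genotype as between them, with 9078, 7719, 9868 and 4875 in C/C and 4720.1, 7425, 9854, 5054 and 7187 in T/T (log2 fold change 0.21, SE 0.28, adjusted p = 0.596). Ctsb spanned 4703 to 6950.1 in C/C and 4591 to 6563 in T/T (0.17, adjusted p = 0.547). Ctsh and Ctss were not called either, at 0.21 and -0.32. With both directions and these large members flat, the summed normalized count of the 10 proteases overlapped, at 13220 to 18803 in C/C and 13333 to 19215 in T/T.

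Lysosomal membrane proteins also went both ways, with 2 of 5 lower and 1 higher. Lamp2, a membrane glycoprotein of which one splice form serves as receptor in chaperone-mediated autophagy, had 732, 524, 658 and 452 normalized counts in C/C and 1048, 921, 943, 1102 and 1070.1 in T/T. The C/C libraries were below the T/T libraries without overlap (log2 fold change -0.80, SE 0.18, adjusted p = 0.00588). Scarb2 (LIMP-2), which carries glucocerebrosidase to the lysosome, had 285, 231, 276 and 262 in C/C against 495, 414, 363, 499 and 649 in T/T (-0.85, SE 0.19, adjusted p = 0.00515).

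Mcoln1, the calcium channel TRPML1 that signals from the lysosome to TFEB, was the member of this class that was higher in C/C. It had 235, 219, 253 and 285 normalized counts in C/C and 116, 161, 142, 116 and 127 in T/T, with no overlap (log2 fold change 0.90, SE 0.17, adjusted p = 0.00249). Lamp1, the close relative of Lamp2 and the member with the highest mean of the class, had 3096, 3357, 3258 and 3100.4 in C/C and 2111, 2343, 3152, 1860.3 and 2236 in T/T. The T/T library of mouse 609 reached the C/C range, and Lamp1 was not called (0.47, SE 0.19, adjusted p = 0.0762). Npc1, the membrane cholesterol transporter, had 111 to 328 in C/C and 137 to 185 in T/T (0.41, adjusted p = 0.254).

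Of the 5 genes classed as lipid handling and cofactors, 2 were called (40%, beside 32.1% of all genes tested), both higher in C/C. Npc2, which hands cholesterol to Npc1, had the highest mean of all members in WAT, with 12711, 12856, 15700.5 and 14516 in C/C and 5821, 9285, 13016, 5880.4 and 7799 in T/T. The T/T library of mouse 609 was again inside the C/C range, and the log2 fold change was 0.80 (SE 0.26, adjusted p = 0.0339). Lipa, lysosomal acid lipase, which releases fatty acids and cholesterol from lipoprotein and droplet lipid, had 569, 709, 522 and 1081 in C/C and 309, 507, 415, 365 and 347 in T/T (0.85, SE 0.23, adjusted p = 0.0139). The C/C libraries were above all T/T libraries for Lipa, narrowly at mouse 599.

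Grn, the precursor of lysosomal granulins, and Psap, the precursor of the saposins that help degrade sphingolipids, were not called, at log2 fold changes of 0.68 (adjusted p = 0.0772) and -0.30 (adjusted p = 0.437). Gpnmb, a glycoprotein of lipid-laden macrophages, had 153, 806, 212 and 157 in C/C and 200.2, 80.7, 48.0, 132 and 146 in T/T. The high value was that of C/C mouse 593, the library with ovarian transcripts, and the log2 fold change moved from 1.22 (adjusted p = 0.0884) to 0.66 without it (adjusted p = 0.209). The macrophage list did not move as one either: its sum was 3173 to 6535 in C/C and 3120 to 4936 in T/T, with 2 of 15 tested genes higher and 4 lower. Its defining genes C1qa (1.06) and C1qc (-1.70), which encode chains of one protein, were called in opposite directions.

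Glycosidases and sulfatases had 1 of 8 genes called. Hexa, the alpha subunit of beta-hexosaminidase A, had 833, 976, 1002 and 1045 normalized counts in C/C and 429, 581, 546, 466 and 431 in T/T. Every C/C library exceeded every T/T library (log2 fold change 0.98, SE 0.17, adjusted p = 0.00157). Naglu, which degrades heparan sulfate, had 0.79 (adjusted p = 0.0811), and Gaa, Gla, Gusb and Sgsh lay between -0.38 and 0.13, none of them called.

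Autophagy genes were split by step. Of the 4 genes of initiation and nucleation, 3 were lower in C/C WAT. Ulk1, the kinase that starts autophagosome formation, had 17.6, 8.42, 22.8 and 19.9 normalized counts in C/C and 97.7, 31.1, 25.7, 69.4 and 73.5 in T/T. The groups did not overlap, although the T/T libraries of mice 608 and 609 came near the C/C range (log2 fold change -1.64, SE 0.42, adjusted p = 0.011). Becn1 and Uvrag, subunits of the class III phosphatidylinositol 3-kinase complexes, were lower by smaller amounts.

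Uvrag was tight within genotype, with 62.3, 60.8, 53.1 and 55.1 in C/C and 94.4, 101, 93.8, 124 and 121 in T/T (-0.87, SE 0.18, adjusted p = 0.00425). Becn1 had 329, 283, 260.1 and 121 in C/C and 349.6, 484, 422, 428 and 352 in T/T (-0.79, SE 0.26, adjusted p = 0.0331). The C/C library of mouse 638 was the lowest for Becn1. Wipi1, which binds the lipid that this complex makes, had 0.22 (adjusted p = 0.459) and was the member of the class with the highest mean.

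The conjugation machinery was called in full, in 2 directions. Atg5 and Atg12 are joined to each other in the cell, with Atg7 as the activating enzyme. Atg5 had 198, 223, 274 and 374 in C/C and 138, 137, 142, 126 and 143 in T/T, above without overlap (0.91, SE 0.19, adjusted p = 0.00438). Atg12 had 146, 124, 105 and 105 in C/C and 224, 195, 223, 212 and 227 in T/T, below without overlap (-0.85, SE 0.17, adjusted p = 0.00284). Atg7 was higher, with 542 to 615 in C/C and 252 to 433 in T/T (0.81, SE 0.18, adjusted p = 0.00518).

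LC3 and GABARAP proteins, which coat the autophagosome membrane after conjugation, had 1 called gene of 5. Map1lc3a had 1632, 2434, 1945 and 2174 normalized counts in C/C and 878, 1129, 1348, 808 and 925 in T/T. All C/C libraries were above the T/T libraries (log2 fold change 1.02, SE 0.20, adjusted p = 0.0033), a 2.02-fold difference. Map1lc3b, the form most used to follow autophagy, had 755, 584, 930.0 and 925 in C/C and 603, 533, 706, 549 and 515 in T/T, and was not called (0.44, SE 0.19, adjusted p = 0.0875).

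Gabarap, Gabarapl1 and Gabarapl2 were not called, at log2 fold changes of -0.27 (adjusted p = 0.198), 0.06 (adjusted p = 0.816) and -0.76 (adjusted p = 0.0743). The sign for Gabarapl1 was negative with libraries scaled to the same total (-0.019), after quantile normalization (-0.10) and without T/T mouse 658. Gabarapl2 ran from 141 to 490.4 in C/C and from 378 to 632 in T/T. Sqstm1 (p62), the receptor that brings ubiquitinated cargo to LC3 and is itself degraded by autophagy, was lower in C/C, with 1003, 1053, 842 and 554 against 1253, 1286, 1564, 1377 and 1299.7 (-0.69, SE 0.21, adjusted p = 0.0226). The genotypes did not overlap for Sqstm1.

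**Figure D2:**
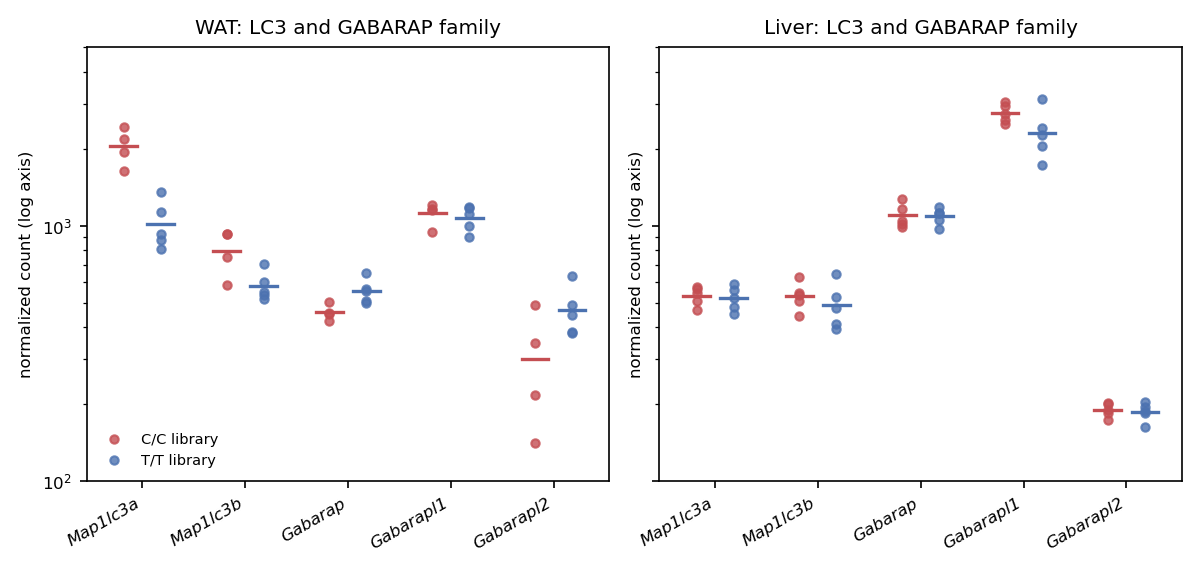
Normalized counts (log axis) of the 5 LC3 and GABARAP genes in WAT and liver libraries, with points for single C/C (red) and T/T (blue) libraries and bars for the genotype mean; the 2 tissues were normalized separately. Map1lc3a is apart in WAT, with C/C at 1632 to 2434 and T/T at 808 to 1348, and overlaps in liver.

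Proton pump genes had the widest range of all classes. Of the 16 tested in WAT, 10 were called (62.5%), 4 higher (25%) and 6 lower (37.5%). Over all genes tested, the shares were 32.1%, 15.1% and 17.0%. Of the 7 tested genes of the V0 sector, the membrane ring and its stalk, 3 were higher and 2 lower. Of the 9 tested genes of the V1 sector, the cytosolic ATPase head, 1 was higher and 4 lower. The counts of called and higher pump genes, and the 3 higher V0 genes, include Atp6v0a4, which passed the minimum only through the C/C libraries. The other V0 genes tested had log2 fold changes of -2.32, -0.63, -0.29, 0.24, 0.89 and 1.40. Both directions remained among them. The median log2 fold change was -0.53 in V1, and the difference between sectors was not tested.

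The e subunit of V0 is encoded by Atp6v0e and Atp6v0e2, which moved in opposite directions. Atp6v0e had 339.9, 139, 229.8 and 85.5 normalized counts in C/C and 835, 810.4, 748, 1117 and 908 in T/T. No C/C library came near the T/T range (log2 fold change -2.32, SE 0.32, adjusted p = 0.000782). Atp6v0e2 had 478, 1864, 865 and 639.5 in C/C and 256, 465, 607, 219 and 204 in T/T, with overlap at T/T mouse 609 (1.40, SE 0.41, adjusted p = 0.0213). Its highest value was in C/C mouse 593, and without that library the log2 fold change was 1.01 (adjusted p = 0.0506).

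The G subunit of V1, part of the stalk that holds the head, gave a second pair of this kind. Atp6v1g1, the widely expressed form, had 34.1, 6.55, 21.7 and 2.34 in C/C and 108, 76.9, 61.4, 127 and 161 in T/T. It had the largest fall of any member (log2 fold change -3.10, SE 0.58, adjusted p = 0.00266), and the C/C values ran from 2.34 to 34.1 with no overlap with T/T. Atp6v1g2, known mainly from neurons, had 37.6, 43.0, 30.3 and 30.5 in C/C and 14.8, 27.2, 18.98, 11.9 and 18.9 in T/T (0.94, SE 0.30, adjusted p = 0.0282). In C/C the counts of Atp6v1g2 were above those of Atp6v1g1 in all 4 libraries, and in T/T they were below in all 5, as counts of 3′ ends. The plot of both pairs gives their values in WAT and liver.

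**Figure D3:**
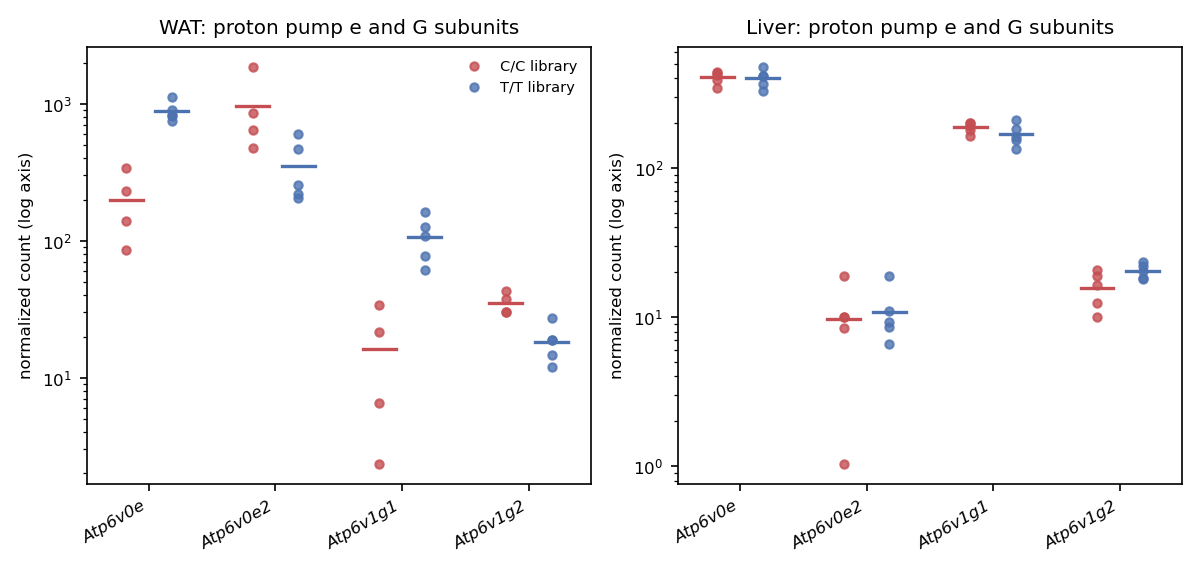
Normalized counts (log axes with separate ranges) of the paired e subunit genes Atp6v0e and Atp6v0e2 and G subunit genes Atp6v1g1 and Atp6v1g2, with points for single C/C (red) and T/T (blue) libraries and bars for genotype means, in WAT and liver, which were normalized separately. In WAT Atp6v0e and Atp6v1g1 were lower and their partners higher in C/C, and in liver the genotypes overlap for all 4.

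Among the other V0 genes, Atp6v0b, a proteolipid of the proton ring, was the most even within C/C, with 1264, 1378, 1318 and 1350.5 against 537, 953.4, 826, 632 and 695 in T/T (0.89, SE 0.19, adjusted p = 0.00439). Atp6v0d1, which links ring and stalk, had 131 to 275 in C/C and 256 to 355 in T/T (-0.63, SE 0.21, adjusted p = 0.0387), and this call was lost when any library but that of C/C mouse 590 was left out. Atp6v0a4, the a subunit form of kidney intercalated cells, passed the minimum mean only through the C/C libraries, so it had to differ to be tested. It had 8.23, 13.1, 22.8 and 32.8 in C/C and 5.74, 2.92, 0, 5.95 and 6.82 in T/T (2.07, SE 0.68, adjusted p = 0.034). The more abundant a subunit genes Atp6v0a1 and Atp6v0a2 were not called, at 0.24 and -0.29.

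Among the V1 genes, Atp6v1b2, the B subunit of the catalytic ring, had 101, 42.1, 93.2 and 42.2 in C/C and 240.4, 197, 181, 222 and 307 in T/T, apart in every library (-1.80, SE 0.29, adjusted p = 0.00119). Its partner in the ring, Atp6v1a, was not called (-0.11, SE 0.18, adjusted p = 0.667), with 547 to 809.7 in C/C and 656 to 933 in T/T. Atp6v1d, the central shaft, was lower at -0.62 (SE 0.20, adjusted p = 0.032) with no overlap, and Atp6v1h, a regulatory subunit, at -0.91 (SE 0.28, adjusted p = 0.026) with overlap.

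Atp6v1c1 did not overlap between genotypes, with 99.6 to 213 in C/C and 215 to 256 in T/T, but was not called (-0.53, SE 0.22, adjusted p = 0.0756). Atp6v1e1 and Atp6v1f, the latter with the highest mean of the V1 genes, were not called, at 0.13 and 0.12, and the sign of both turned under another setting (to -0.021 and -0.039 at the lowest). Of the last 500 bases of the Atp6v1f transcript, 22.8% of the 50-base words also occurred in a transcript of another gene, so its count is uncertain. That share was 3.33% or less for the other members.

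The calls in WAT were repeated with each mouse left out. Of the 30 members, 19 were called every time, namely Lamp2, Scarb2, Mcoln1, Ctsc, Ctsf, Ctsl, Tpp1, Hexa, Lipa, Ulk1, Uvrag, Atg5, Atg7, Atg12, Map1lc3a, Atp6v0b, Atp6v0e, Atp6v1b2 and Atp6v1g1. With the mice numbered 590 to 609 alone, 3 of each genotype, 8 were called, beside 6.84% of all genes tested. Hexa and Ctsf were higher, and Ctsl, Ctsc, Tpp1, Atp6v0e, Atp6v1b2 and Atp6v1g1 lower. All 30 kept their sign, but these libraries had also entered the fit that made the calls, so that is no independent result.

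The other 11 calls were each lost with at least 1 mouse left out, with the direction kept throughout. With 1 mouse left out, 23.6% to 33.3% of all genes tested were called, beside 32.1% with all mice. Why these calls were lost was not tested. Sqstm1 was lost without C/C mouse 599 (-0.69, adjusted p = 0.0505) or 638 (-0.49, adjusted p = 0.0615), and Atp6v0e2 without C/C mouse 593 (1.01) or T/T mouse 657 (1.26). Atp6v0a4 was lost without C/C mouse 599 (1.94), C/C mouse 638 (1.77) or T/T mouse 608 (2.04), and Atp6v1g2 without C/C mouse 590 (0.91), C/C mouse 593 (0.85), T/T mouse 607 (0.88) or T/T mouse 657 (0.81). Becn1 was lost without C/C mice 599 (-0.85) or 638 (-0.48) or T/T mice 608 (-0.73), 609 (-0.78) or 657 (-0.77). Atp6v1d was lost without C/C mouse 638 (-0.42) or T/T mice 608 (-0.60), 609 (-0.59), 657 (-0.61) or 658 (-0.62).

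Atp6v1h was lost without C/C mice 593 (-0.72) or 599 (-0.81) or T/T mice 607 (-0.81), 657 (-0.82) or 658 (-0.87). Ctsz was lost without C/C mice 599 (-0.73) or 638 (-0.56) or T/T mice 607 (-0.79), 608 (-0.71) or 657 (-0.70). Npc2 was lost without C/C mice 599 (0.74) or 638 (0.78) or T/T mice 607 (0.69), 657 (0.69) or 658 (0.79). Ctsa was lost without C/C mice 590 (0.47), 593 (0.45) or 638 (0.47) or T/T mice 607 (0.48), 657 (0.48) or 658 (0.44). Atp6v0d1 ran from -0.81 to -0.46 with 1 mouse left out. In the other direction, Lamp1 was called higher without T/T mouse 609 (0.59, adjusted p = 0.0251), Map1lc3b higher without C/C mouse 593 (0.58, adjusted p = 0.0299), and Gabarapl2 (-1.05, adjusted p = 0.0136) and Atp6v1c1 (-0.66, adjusted p = 0.0409) lower without C/C mouse 590.

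Members under the minimum mean were not tested. Atp6v0c, the other proteolipid of the ring, had 5.42 to 12.9 normalized counts in C/C and 1.64 to 7.58 in T/T WAT, and 0.91 to 10.6 and 3.29 to 7.55 in liver. Atp6v0d2, a d subunit form of osteoclasts and macrophages, had 32.8 in C/C mouse 593 and 1.12 to 7.59 in the other 8 WAT libraries. Atp6v1c2 had 0 to 11.5 in WAT. In liver Gpnmb had 0 to 25.1, and Atp6v0a4 and Atp6v1c2 were not listed. Just inside the minimum stood Atp6v0a4 in WAT, with a mean of 10.9, and Atp6v0e2 in liver, with a mean of 10.3, and just outside it Atp6v0d2 in WAT, with 7.02, and Atp6v0c in liver, with 4.97.

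GC content was read from 1 annotated coding transcript per gene. The transcripts of the 13 members called higher had a median GC content of 53.0%, those of the 17 called lower 46.8% and those of the 27 not called 51.6%, against 50.5% over the 11317 tested genes with an annotated coding transcript. Over all genes, those called higher and those called lower had the same median, 51.0%. The part of GC content in the members' differences was not tested.

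Liver was the second comparison, and none of the 56 members tested was called, nor any of 11710 genes (0% called) by limma, edgeR or DESeq2. No member reached an unadjusted p under 0.05, and 231 genes of all those tested did. The members' log2 fold changes lay between -0.40 and 0.34, with a median of 0.02 beside 0.01 over all genes, and the median absolute change was 0.07 against 0.76 in WAT. In no member were the genotypes apart in every library, and 0.248% of all genes tested were (0.111% with C/C above and 0.137% with C/C below). These livers varied less than WAT, with a median SD within genotype of 0.20 on the log2 scale for members against 0.35 in WAT.

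The 5 members with the lowest unadjusted p in liver were Npc1, Gabarapl1, Wipi1, Ctsl and Atp6v1h, all with adjusted p = 1. Npc1 had 558, 688, 556, 494 and 491 normalized counts in C/C and 435, 559, 543, 417 and 291 in T/T, with overlap (log2 fold change 0.34, 95% interval -0.0017 to 0.68). Gabarapl1 had 2499.7 to 3037 in C/C and 1728 to 3131 in T/T (0.28, 95% interval -0.02 to 0.58). Wipi1 and Atp6v1h gave 0.28 and 0.34.

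Ctsl, the most changed protease of WAT, had 2550.0, 2467, 2431, 2868 and 2674 normalized counts in C/C livers and 1965, 2469, 1935, 2340.0 and 2526 in T/T livers. The C/C values were mostly the higher ones, and the difference was 0.22 (95% interval -0.03 to 0.47), opposite in sign to WAT. For Tpp1 the interval in liver was -0.14 to 0.46, for Atp6v0e -0.24 to 0.29, for Atp6v1g1 -0.12 to 0.45 and for Map1lc3a -0.21 to 0.28. None of these intervals reached the size of the difference in WAT.

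**Figure D4:**
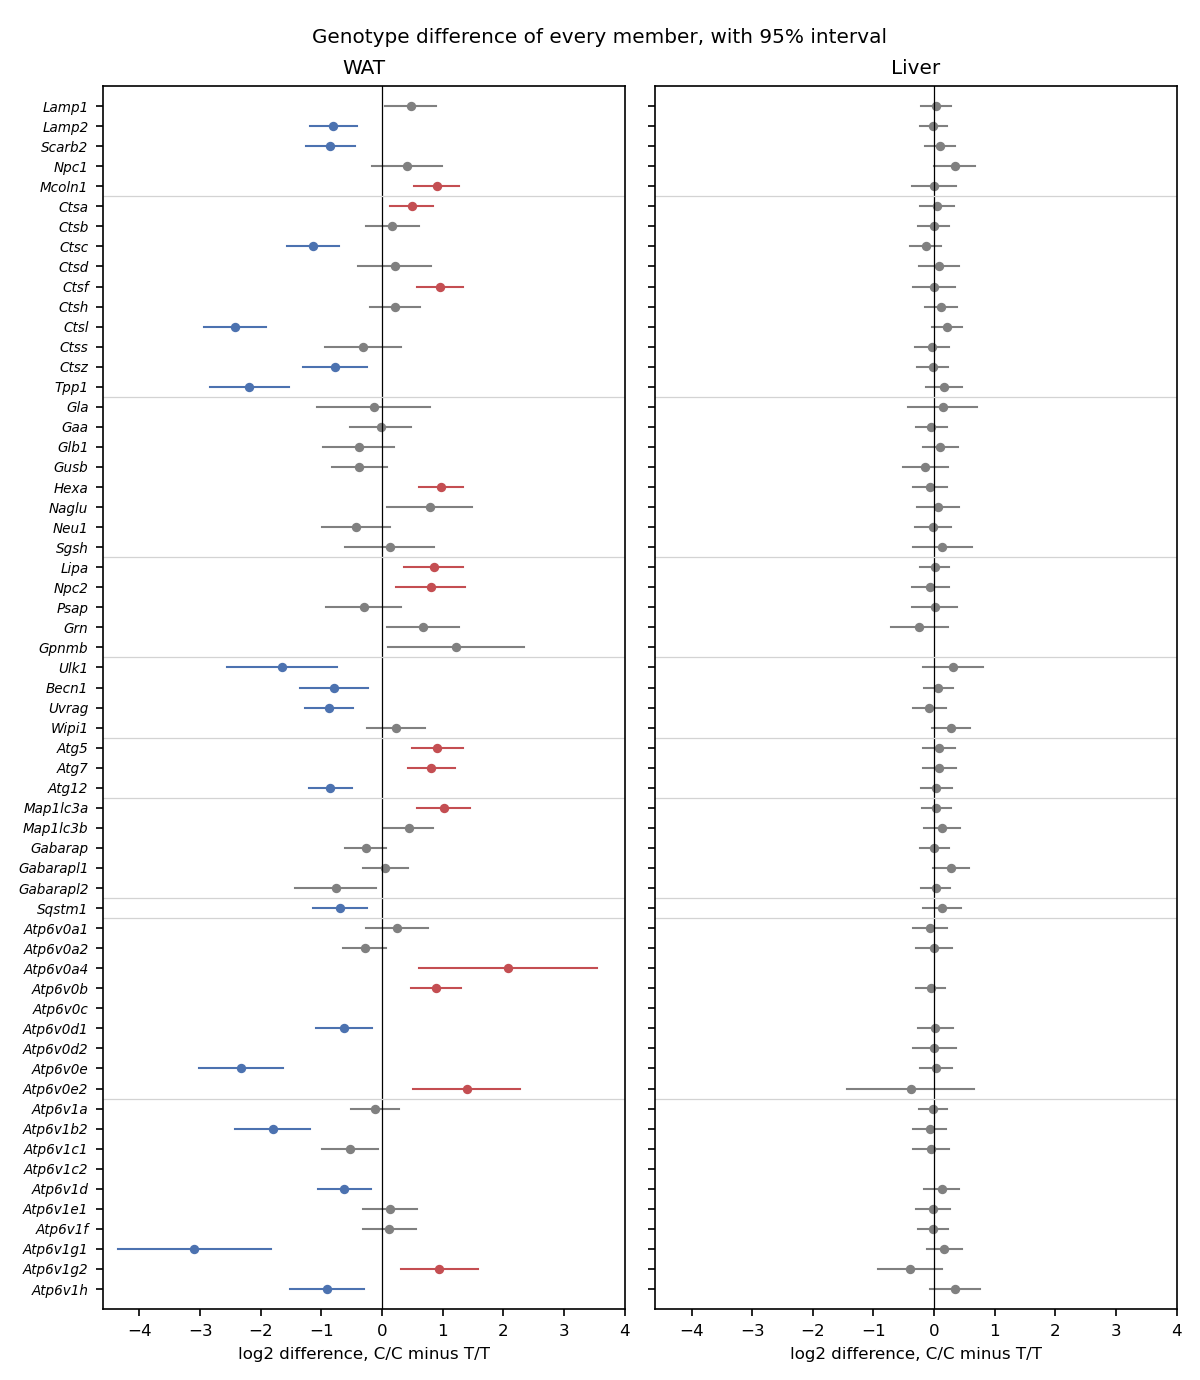
Log2 difference between C/C and T/T with its 95% interval from limma for every member tested, in WAT (left) and liver (right), with members called higher in C/C in red, lower in blue and not called in grey, and lines between role classes. WAT differences ran from -3.10 to 2.07, and liver differences from -0.40 to 0.34 with no call.

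The difference between tissues was tested as an interaction over all 19 libraries. It was called for 26 of the 55 members past the minimum in both tissues, 10 with the WAT difference above that in liver and 16 below, against 29.2% of 10404 genes (11.5% above and 17.7% below). Ctsl had the smallest adjusted p of them (2.67e-06), with an interaction of -2.64 on the log2 scale, the WAT difference minus that in liver. Other large ones were Atp6v1g1 (-3.27), Tpp1 (-2.35) and Atp6v0e (-2.35), and on the other side Atp6v1g2 (1.35) and Hexa (1.05). Ctsa, Atp6v0d1 and Atp6v0e2, all called in WAT, were not called for the interaction (adjusted p = 0.0974, 0.0513 and 0.0729). Paired by mouse as a block, the interaction was called for 25 members with all libraries, and for 5, all with the WAT difference below that in liver, when only the 6 mice with both tissues were kept and the mouse was a fixed block. In that last fit 9.97% of all genes were called, so 5 of 55 members is near the background.

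Levels in the 2 tissues can be set side by side only with the reserve that each table was normalized on its own, and no test was made. In T/T animals Npc2 had a mean of 8360.4 normalized counts in WAT and 1669 in liver, and Ctsl 936 and 2247. Sqstm1 had 1356 in WAT and 2222 in liver, and Gabarapl1 1073 and 2313. Among the pump pairs, Atp6v0e2 had 350.3 in WAT and 10.9 in liver, while Atp6v0e had 883 and 401.

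Wider lists of the same pathways were counted in WAT in the same way. Of 78 further lysosomal genes tested, 12 were higher and 20 lower in C/C, with a median log2 fold change of -0.25, which makes 41.0% called (15.4% higher) beside 32.1% (15.1% higher) of all genes tested. Cd63, a tetraspanin of late endosomes, was lower (-2.29, adjusted p = 0.00245), and so was Cd164, a sialomucin of the lysosomal membrane (-1.90). Slc29a3, a lysosomal nucleoside transporter (1.43), and Asah1, acid ceramidase (1.20), were higher. The 2 accessory proteins of the proton pump were called in opposite directions, Atp6ap1 higher (0.91, SE 0.22) and Atp6ap2 lower (-1.12, SE 0.20).

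Of 59 further autophagy genes, 8 were higher and 14 lower in C/C WAT, with a median of -0.15 and 37.3% called (13.6% higher) beside 32.1% (15.1% higher) of all genes. Vmp1, needed for autophagosomes to form (-1.89), and Ulk2, the close relative of Ulk1 (-0.80), were lower. Atg101 (1.24) and Atg13 (-0.73), which bind each other in the Ulk1 complex, were called in opposite directions. No gene of either wider list was called in liver.

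A list of TFEB, TFE3, related factors and their regulators held 17 tested genes. Of these, 1 was higher and 4 lower in C/C WAT, which makes 29.4% called, a share below the 32.1% of all genes. Tfe3 was the one that was higher, with 396 to 479 normalized counts in C/C and 258 to 344 in T/T (0.53, SE 0.16, adjusted p = 0.027), while Tfeb was not called (0.26, SE 0.22, adjusted p = 0.391). Rraga, a Rag GTPase that recruits mTORC1 to the lysosome, was lower, at 17.6 to 38.8 against 62.3 to 174 (-1.80, SE 0.35, adjusted p = 0.00273). Lamtor1 (-1.004) and Lamtor2 (-1.05), subunits of the Ragulator that anchors it, were lower too, as was Ppp3cb, a calcineurin catalytic subunit (-0.47). Flcn (-0.66, adjusted p = 0.138) and Fnip2 (-0.27, adjusted p = 0.58) were not called, and in liver none of the 17 was.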

How the data were processed

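RNA from liver (250 ng) and WAT (500 ng) had been made into QuantSeq 3′ libraries, with 76 sequencing runs, 4 per mouse and tissue. The authors deposited 1 table per tissue of read counts divided by a size factor per library, so the values are a normalized signal, and each table was normalized on its own. The submitters' processing notes name FastQC 0.11.9, HISAT2, SAMtools 1.12, HTSeq, DESeq2 and GRCm39. A column of the WAT table that no label describes (1 in all) was not used. Whole reads were recovered for 100% of the values.

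Samples were grouped by labelled genotype. The values were taken as log2(value + 1), genes with a mean of at least 10 were kept, and limma 3.58.1 (R 4.3.3; lmFit, eBayes with trend and robust options) was fitted in each tissue, with Benjamini-Hochberg adjustment over all genes and a threshold of 0.05. The interaction contrast used all 19 libraries. Exact permutation tests were two-sided. P-values measure the spread between mice, 1 library each. The fits were checked on simulated data. The same mouse gave both tissues for 6 mice by the labels, and the deviations of these pairs correlated between -0.20 and 0.16.

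Alternatives were other pseudocounts, filters, scalings and thresholds, library weights, a term for mouse number, edgeR 4.0.16 (quasi-likelihood, TMM) and DESeq2 1.42.0 on the recovered reads, each mouse left out, and the mouse as a block; a term for even or odd RNA label numbers in liver was added after seeing the data. GC content and shared transcript ends came from GENCODE vM21, and promoters from RefSeq, both on GRCm38, which was used for names and sequences only. The members and lists were chosen with earlier results of these data known. Members named with values were those called in WAT, those with an interaction or without overlap, the highest of each class, the LC3 and GABARAP genes, those under the minimum, the 5 lowest p in liver and the regulators Fnip2, Flcn, Tfeb and Tfe3. Further members and list genes were named after their values were seen.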

Additional observations from a re-analysis of the deposited data

Results flagged for a closer look

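For 26 members the genotype difference in WAT differed from that in liver by the interaction test (adjusted p under 0.05), and each value given here is the WAT difference minus the liver difference on the log2 scale. Among lysosomal proteins, Ctsl (-2.64), Tpp1 (-2.35), Ctsc (-1.001), Scarb2 (-0.95), Lamp2 (-0.79) and Ctsz (-0.74) were below liver. Hexa (1.05), Ctsf (0.97), Mcoln1 (0.90), Npc2 (0.87) and Lipa (0.84) were above it. Among autophagy genes, Ulk1 (-1.96), Atg12 (-0.89), Becn1 (-0.86), Sqstm1 (-0.82) and Uvrag (-0.79) were below, and Map1lc3a (0.98), Atg5 (0.84) and Atg7 (0.73) above. In the proton pump, Atp6v1g1 (-3.27), Atp6v0e (-2.35), Atp6v1b2 (-1.73), Atp6v1h (-1.25) and Atp6v1d (-0.75) were below, and Atp6v1g2 (1.35) and Atp6v0b (0.95) above.

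A single library stood apart from the rest of its group in 2 of 88 groups of named members, and chance would place about 1 in 20 groups there. Ctsa had 621 normalized counts in the C/C WAT library of mouse 599, below the other 3, with a gap of 0.848 of the whole range on the log2 scale. Atp6v1d had 327 in the T/T WAT library of mouse 607, below the other 4, with a gap of 0.714 of the range.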

How the results depend on the processing

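In WAT, edgeR called 29 members (12 higher, 17 lower) and DESeq2 33 (16 higher, 17 lower), and an adjusted p under 0.1 called 37. With 1 mouse left out, 21 to 31 members were called (9 to 16 higher, 12 to 19 lower), and 19 of the 30 calls held with every mouse left out in turn. The median log2 fold change of the members ran from -0.12 to 0.13 with 1 mouse left out. Within the mice numbered 590 to 609 alone, 8 members were called (2 higher, 6 lower) beside 6.84% of all genes. All 30 kept their sign, in libraries that had also entered the fit that made the calls. The mice with higher numbers hold 1 C/C library in WAT. Without C/C mouse 593, 25 of the 30 calls held. In liver no member was called under any setting run, the term for even or odd labels included, and within the lower-numbered mice the median was -0.047. The interaction was called for 21 to 30 members with 1 mouse left out, for 25 with the mouse as a replicate block, and for 5 with a fixed block over the 6 mice with both tissues; fewer samples entered that fit. Quantile normalization moved the median interaction over all genes from -0.04 to 0.07. No member called in WAT changed sign, while 7 of 27 not called there and 34 of 56 in liver did so under some setting. Among members chosen to be named, these were Gabarapl1 in WAT at the same total (-0.019), after quantile normalization (-0.10) and without T/T mouse 658 (-0.0034; -0.0034 to 0.14 with 1 mouse left out), and Atp6v1f after quantile normalization (-0.039). Counts of a few reads, as in Atp6v0a4, Atp6v0c and Atp6v1c2, limit what can be said of those genes; the cause of the losses was not tested.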
